A study of Mus musculus with 168 samples.

Results

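The let-7 family with Mir98 was represented here by 5 microRNA loci, Mirlet7i, Mirlet7a-1, Mirlet7a-2, Mirlet7c-1 and Mir98. These are the rows of the mouse cortex small RNA count table whose GENCODE vM21 gene name is one of these 5 names, out of 1626 transcripts in the table. The libraries come from cortex of 8 mice (4 female, 4 male) for each of 7 genotypes at 2, 6 and 10 months of age. All mice were C57BL/6. The Q20, Q80, Q92, Q111, Q140 and Q175 mice were heterozygous knock-ins, carrying 1 wild-type Htt allele and 1 Htt allele in which exon 1 is the human HTT exon with a CAG repeat of about the length in the name. WT mice carried no knock-in allele and were littermates of the Q20 line. Q20 and WT mice served as controls. The Q175 line arose from the Q140 line by a spontaneous expansion of the repeat, so these lines share an origin. The tissue was whole flash-frozen cortex, in which fewer cells of a type and less RNA per cell cannot be told apart.

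The let-7 microRNAs were among the earliest found and are conserved from worms to humans. They accumulate as cells leave the cell cycle and differentiate, are abundant in the adult brain, and repress mRNAs such as Lin28a, Hmga2 and members of the Ras family. Lin28 proteins in turn bind let-7 precursors and block their processing. All loci of the family make a mature microRNA from the 5' arm of the hairpin that pairs with its targets mainly through the seed, bases 2 to 8.

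The mature 5' arm sequences of the members are shown because loci with like sequences can share reads (5' to 3', RefSeq annotation of GRCm38.p6, seed in capitals):

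let-7i-5p: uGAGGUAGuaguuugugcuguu

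let-7a-5p: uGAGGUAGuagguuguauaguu

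let-7c-5p: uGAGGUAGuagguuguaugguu

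miR-98-5p: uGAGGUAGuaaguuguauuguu

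The seed is the same in all of them. Counted from 1 at the 5' end and with the base of let-7a first, let-7c differs from let-7a by A19G, miR-98 by G11A and A19U, and let-7i by G12U, A17G, U18C and A19U. Of the members, let-7i is thus the one with the most differences from let-7a, 4 against 1 and 2. Its nearest relative among the 5' arms compared is let-7g, which is no member and differs from let-7i at 2 positions:

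let-7g-5p: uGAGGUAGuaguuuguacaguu

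The 5 loci lie on 5 chromosomes (GRCm38). Mirlet7i is at chr10:122985640-122985724 on the minus strand, in an exon of the pseudogene D630033A02Rik. Mirlet7a-1 is at chr13:48538179-48538272 on the minus strand, in an exon of the long non-coding RNA 6720427I07Rik and 2064 bases from Mirlet7d. Mirlet7a-2 is at chr9:41536716-41536811 on the plus strand, in an intron of the non-coding 3110039I08Rik and 5211 bases from Mir100. Mirlet7c-1 is at chr16:77599657-77599750 on the plus strand, in an intron of Mir99ahg, next to Mir99a. Mir98 is at chrX:151913214-151913321 on the plus strand, in an intron of the ubiquitin ligase gene Huwe1 and 785 bases from Mirlet7f-2. Mirlet7i had no other let-7, Mir99, Mir100 or Mir125 locus of the table on its chromosome.

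The let-7a 5' arm is made by more than 1 locus, as is that of let-7c, and the deposited counts appear to divide reads between loci. The counts were not whole numbers in any library for Mirlet7a-1, Mirlet7a-2 and Mirlet7c-1, nor in 165 libraries for Mirlet7i, while those of Mir98 were whole throughout. Over the 160 libraries without 6-month WT, Mirlet7a-1 held 92.9% ± 1.24 (SD) of the counts of both let-7a loci, and Mirlet7c-1 held 36.1% ± 4.26 (SD) of those of both let-7c loci. The mean share of Mirlet7c-1 in this pair was 35.4% in the libraries of 2 months, 41.4% in those of 6 months and 32.3% in those of 10 months. Values of Mirlet7a-1, Mirlet7a-2 and Mirlet7c-1 are therefore uncertain as values of a single locus. Those of Mirlet7i may hold divided reads as well, and how far this affects them was not tested.

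Library totals, in units of 1e6 counts, ran from 2.04 to 11.6 with a median of 4.81. The rarest members, Mirlet7a-2 and Mir98, had median counts of 3976 and 4262 in a library. The 8 WT libraries of 6 months stood apart. Their names follow the pattern of the 2- and 10-month libraries and not that of the other 6-month libraries, and the study's methods list no cortex WT of this age. They were left out of the tests except where stated, and are described at the end. Lane number here is the number after L in the library names, read as the sequencing lane, which the labels do not state. At 6 months the Q175 libraries shared no lane number with Q20, so lane and genotype cannot be told apart there, and 11 of the 48 libraries carried the code V in place of LB. Libraries of code V were given no lane number. The libraries of 2 and 10 months have only lane number 7 in common, so age and lane can hardly be told apart. By the library names, the Q80 to Q175 mice of these ages came from other cages than the controls. Cage and genotype therefore cannot be told apart in these comparisons. In addition, 18 of 56 libraries at 2 months and 12 of 48 at 6 months had a median correlation under 0.98 with the libraries of their age, against 0 of 56 at 10 months, and the calls that change without them are given both ways.

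Compared per length, the members differed widely in level, and 4 of them kept the same order in every library. Over the 160 libraries without 6-month WT, FPKM (counts scaled to library total and length) was 121966 at the median for Mirlet7a-1, with a lowest value of 94200 and a highest of 159468. The median FPKM was 78584 for Mirlet7i, 48855 for Mirlet7c-1, 8683 for Mirlet7a-2 and 8127 for Mir98. Mirlet7a-1 was above Mirlet7i, Mirlet7i above Mirlet7c-1, and Mirlet7c-1 above Mirlet7a-2 in 160 of 160 libraries at each step. The last step, Mirlet7a-2 above Mir98, held in 109 of 160 libraries, so these neighbours in the order overlapped widely. The ratio of their medians was 1.07, against 1.55, 1.61 and 5.63 at the steps above. Together the 5 loci took 2.54% ± 0.304 (SD) of all counts of a library.

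**Figure D1:**
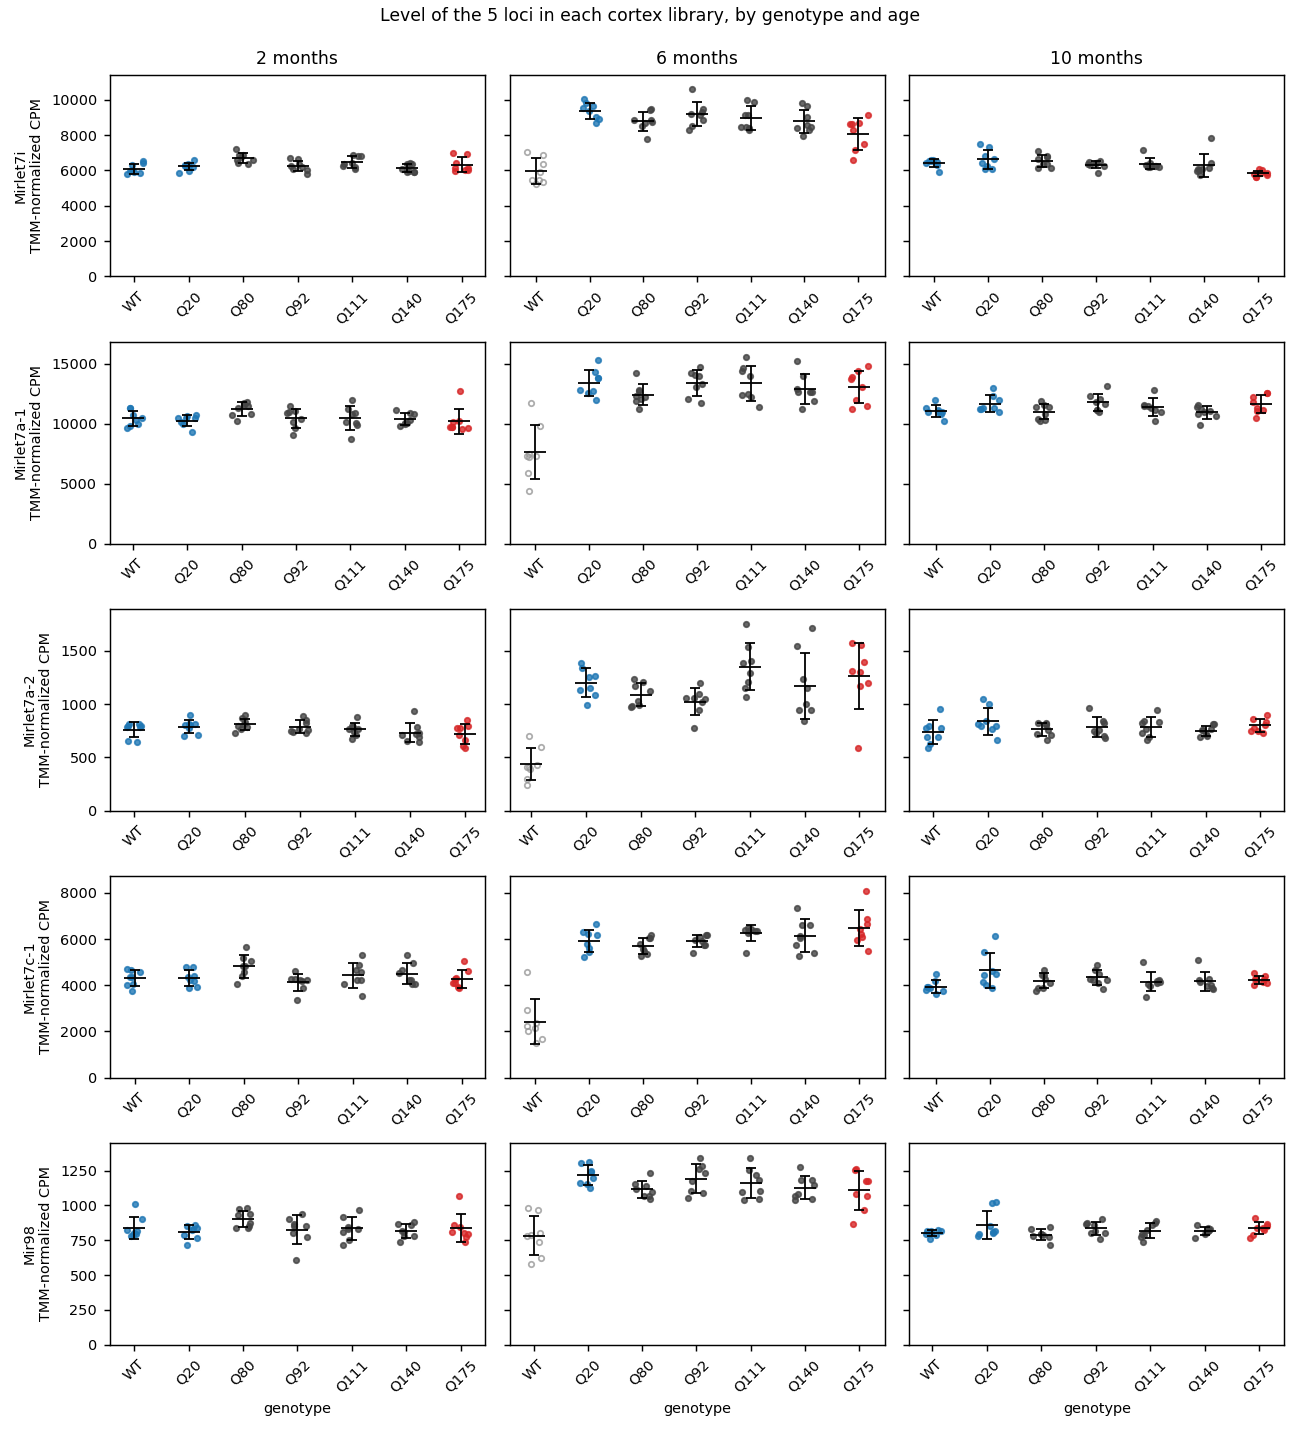
TMM-normalized CPM (read counts scaled to library size, linear axis from 0) of the 5 loci in each library, by genotype and age; points are libraries, the wide bar is the mean and the error bars are SD (n = 8 mice), with controls in blue, Q175 in red and 6-month WT as open grey points. Mirlet7i was lowest in Q175 at 10 months, with a mean of 5827 CPM against 6422 in WT and 6640 in Q20, while the other 4 loci show no such step.

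The first question was whether the level of each locus followed the length of the CAG repeat. In the test over all lines Mirlet7i passed at 6 and 10 months and not at 2 months, and it was the only member that passed. Both calls were lost without the Q175 mice, and that at 6 months under other settings as well, as given below. Change is given as the log2 change of CPM for 100 more repeats, tested with edgeR's quasi-likelihood test over all microRNAs of the study's list, with WT set at a length of 7. Mirlet7i changed by 0.01 at 2 months (SE 0.02, adjusted p = 0.999, 56 libraries). At 6 months it fell by 0.12 (SE 0.03, adjusted p = 0.0476, 48 libraries), and at 10 months by 0.08 (SE 0.02, adjusted p = 0.00618, 56 libraries). Of all microRNAs tested, 0% passed at 2 months, 2.75% at 6 months (1.53% higher, 1.22% lower) and 8.84% at 10 months (5.18% higher, 3.66% lower), beside 0, 1 and 1 of the 5 members. At 2 months 0 of 5 members passed at an unadjusted p under 0.05, and DESeq2 called 0.

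Combining both older ages by the sum of their Z values, Mirlet7i reached Z = -4.92 (adjusted p = 3.49e-05). It ranked 8 of 327 microRNAs by p, and 11.9% of them passed in the combined test (6.12% lower). The other members had Z = 0.07 for Mirlet7a-1, -0.05 for Mirlet7a-2, 1.01 for Mirlet7c-1 and -1.48 for Mir98, with adjusted p from 0.362 to 0.981. Mir98 came nearest to Mirlet7i at 6 months, with a log2 change of -0.07 for 100 repeats (SE 0.04, adjusted p = 0.22). At 10 months its value was 0.00 (SE 0.02, adjusted p = 0.998).

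The change of the CAG slope between 2 and 10 months was tested by an interaction term, which for Mirlet7i was -0.10 (SE 0.03, adjusted p = 0.0346, 112 libraries). It was passed by 1.83% of all microRNAs and by 0 of the other 4 members. This call is near the threshold, and DESeq2 gave -0.09 with an adjusted p of 0.0596. Without the libraries that stood apart the term was -0.09 (adjusted p = 0.249).

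**Figure D2:**
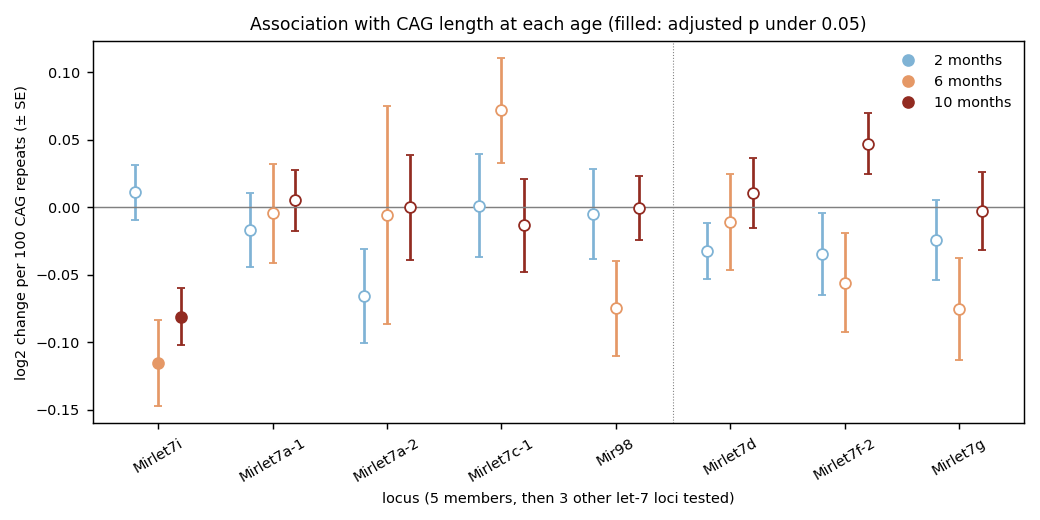
Log2 change of CPM per 100 CAG repeats at each age for the 5 members and, right of the dotted line, 3 other let-7 loci of the study's list; error bars are SE, and filled points have an adjusted p under 0.05. Mirlet7i at 6 and 10 months holds the filled points, at -0.12 and -0.08.

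The association of Mirlet7i did not pass without the Q175 mice. In the other lines, it had a slope of -0.04 at 6 months (adjusted p = 0.775) and -0.04 at 10 months (adjusted p = 0.693), and the combined Z was -1.93 (adjusted p = 0.473). At 6 months the call of Mirlet7i was also lost among LB libraries alone (-0.10, adjusted p = 0.12) and without the libraries that stood apart (-0.06, adjusted p = 0.319). The combined call stood without those libraries (Z = -4.02, adjusted p = 0.00121).

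At 10 months Mirlet7i had the clearest difference between groups. In the 8 Q175 mice its level was 5629 CPM at the lowest, 5825 at the median and 6064 at the highest. In the 16 control mice it was 5890 at the lowest, 6510 at the median and 7494 at the highest. All 8 Q175 libraries were below the control median, 6 of them were below the lowest control, and 1 of 16 controls was below the highest Q175 library, so the groups overlapped little. A full separation of these groups was seen for 1.83% of the microRNAs and for 0 of the 5 members.

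The fitted difference of Mirlet7i between Q175 and controls at 10 months was -0.18 on the log2 scale (SE 0.04, adjusted p = 0.00213), a fall of 11.7%. In this comparison 12.2% of 327 microRNAs passed (6.73% lower), and 1 of 5 members did. The adjusted p of Mirlet7i stayed between 1.24e-05 and 0.0104 under all 10 alternatives tried. Within lanes 6, 7 and 8, which hold 3, 4 and 1 Q175 libraries, the log2 difference was -0.18, -0.15 and -0.10. Within sex it was -0.14 in females and -0.19 in males.

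The other 4 members did not separate at 10 months. Mirlet7a-1 had a median of 11545 CPM in Q175 and 11236 in controls, with a log2 difference of 0.02 (SE 0.04, adjusted p = 0.825). The values of Mirlet7c-1, Mirlet7a-2 and Mir98 were -0.03 (SE 0.07), 0.01 (SE 0.08) and -0.01 (SE 0.05), none of which passed. For all 4 loci the Q175 range lay inside that of the controls.

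In the lines with shorter repeats, 0 of 5 members passed at 10 months. The log2 difference of Mirlet7i from the same 16 controls was -0.06 in Q140, -0.04 in Q111, -0.06 in Q92 and -0.01 in Q80, with adjusted p from 0.648 to 0.997. These comparisons share their controls with that of Q175. Of all microRNAs 0% passed in each of these 4 lines, 0 members reached an unadjusted p under 0.05, and DESeq2 called 0 members. In Q140 the level of Mirlet7i ran from 5752 CPM over a median of 6084 to 7841, and 7 of 8 mice were below the control median. The highest of these lies above every control, and the SD of that group was 655 CPM.

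At 6 months Mirlet7i was again lowest in Q175, with a wider spread. Its level was 6576, 8454 and 9150 CPM (lowest, median, highest) in Q175 and 8705, 9440 and 10030 CPM in Q20. Thus 7 of 8 Q175 libraries were below the lowest Q20 library, with 3 of 8 Q20 libraries below the highest of Q175. The log2 difference was -0.20 (SE 0.07, adjusted p = 0.163), which did not pass, while 2.77% of 325 microRNAs did (2.46% higher, 0.308% lower). Of the members 0 passed, 1 had an unadjusted p under 0.05, and DESeq2 called 0. Without the libraries that stood apart the difference was -0.13 (adjusted p = 0.585). A full separation from Q20 was seen for 0.923% of the microRNAs and for no member.

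In the 4 other lines, which share these Q20 libraries as controls, 0 of 5 members passed at 6 months and DESeq2 called 0. Mirlet7i had log2 differences of -0.07 in Q140, -0.03 in Q111, -0.04 in Q92 and -0.07 in Q80. The largest difference of a member was that of Mirlet7a-2 in Q92, at -0.24 (SE 0.07, adjusted p = 0.148). Of all microRNAs 0.311% passed in Q92, all of them higher (0.311%), and 0% in the other lines. At an unadjusted p under 0.05 there was 1 member in Q92, 2 in Q80 and 0 in Q111 and Q140. Q140 was also compared with Q92, with which it shares some lane numbers, and Mirlet7i differed by -0.05 (SE 0.05, adjusted p = 0.812). In that comparison 0% of all microRNAs passed, and 0 members were below an unadjusted p of 0.05 or called by DESeq2.

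Q80 has the same lane numbers and code V as Q175 at 6 months, but in unlike proportions, so these groups are only partly matched by lane. Lane was not a term in this fit. Mirlet7i had a log2 difference of -0.13 from Q80 (SE 0.07, adjusted p = 0.358), and 0 members passed against 2.77% of all microRNAs. Mirlet7c-1 differed by 0.16 (SE 0.07, adjusted p = 0.254), with 1 member at an unadjusted p under 0.05 and 0 called by DESeq2. Without the libraries that stood apart Mirlet7a-2 passed in this comparison, at 0.36 (adjusted p = 0.0221), as did 1.23% of all microRNAs.

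The members share library, depth and scaling, so ratios between them within a library were compared as well. This comparison was chosen after the values had been seen and covers every pair of members, in 4 comparisons and 40 exact permutation tests (two-sided), with p adjusted over the 40. Unlike the fits, these tests had no term for sex or library code. At 6 months 3 of 8 Q175 libraries and no Q20 library had code V, so code and genotype are partly mixed in the ratios from Q20. At 10 months the log2 ratio of Mirlet7i to Mirlet7a-1 counts in Q175 was -1.12 at the lowest, -1.01 at the median and -0.85 at the highest. In the controls it was -0.90, -0.78 and -0.64. All 8 Q175 libraries were below the control median and 6 were below every control.

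The difference of this ratio was -0.20 (exact permutation p = 2.31e-05, adjusted p = 0.000925). Mirlet7i was also lower against Mir98 (-0.17, exact permutation p = 0.000185, adjusted p = 0.00123), against Mirlet7a-2 (-0.20, exact permutation p = 0.0125, adjusted p = 0.0358) and against Mirlet7c-1 (-0.16, exact permutation p = 0.0139, adjusted p = 0.0369). The 6 pairs without Mirlet7i did not pass, with differences from -0.02 to 0.04 and adjusted p from 0.684 to 0.98. With Q20 as the only controls the differences against Mirlet7c-1 (-0.07, exact permutation p = 0.27) and Mirlet7a-2 (-0.13, exact permutation p = 0.0831) no longer passed, while those against Mirlet7a-1 (-0.18) and Mir98 (-0.15) did.

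At 6 months 2 of the ratios separated the groups fully. The share of ratios between other microRNAs that separate these groups was not determined, so how unusual this is cannot be told. The log2 ratio of Mirlet7i to Mirlet7a-1 ran from -0.77 to -0.65 in Q175, from -0.61 to -0.43 in Q20 and from -0.59 to -0.44 in Q80. No Q175 library overlapped either group. The differences were -0.18 from Q20 and -0.20 from Q80, each with an exact permutation p of 0.000155, the smallest that 8 against 8 libraries allow. The ratio of Mirlet7i to Mirlet7c-1 differed by -0.35 from Q20 and -0.30 from Q80, again without overlap, and that to Mir98 by -0.08 and -0.11 (adjusted p = 0.00553 and 0.00389).

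Some pairs without Mirlet7i passed as well at 6 months. Mirlet7c-1 rose against Mir98 by 0.27 from Q20 (adjusted p = 0.00389) and by 0.19 from Q80 (adjusted p = 0.0139). Mirlet7a-1 rose against Mir98 by 0.11 from Q20 (adjusted p = 0.0136) and by 0.09 from Q80 (adjusted p = 0.0139). The ratio of Mirlet7a-1 to Mirlet7c-1 differed by -0.17 from Q20 (adjusted p = 0.0136), but the -0.11 from Q80 did not pass (adjusted p = 0.113). No pair with Mirlet7a-2 passed at this age. Without the libraries that stood apart the ratio of Mirlet7i to Mirlet7a-2 differed from Q20 by -0.40 (exact permutation p = 0.000583), and the ratios of Mirlet7i to Mirlet7a-1, Mirlet7c-1 and Mir98 kept their sign, with exact permutation p from 0.000583 to 0.00233.

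**Figure D3:**
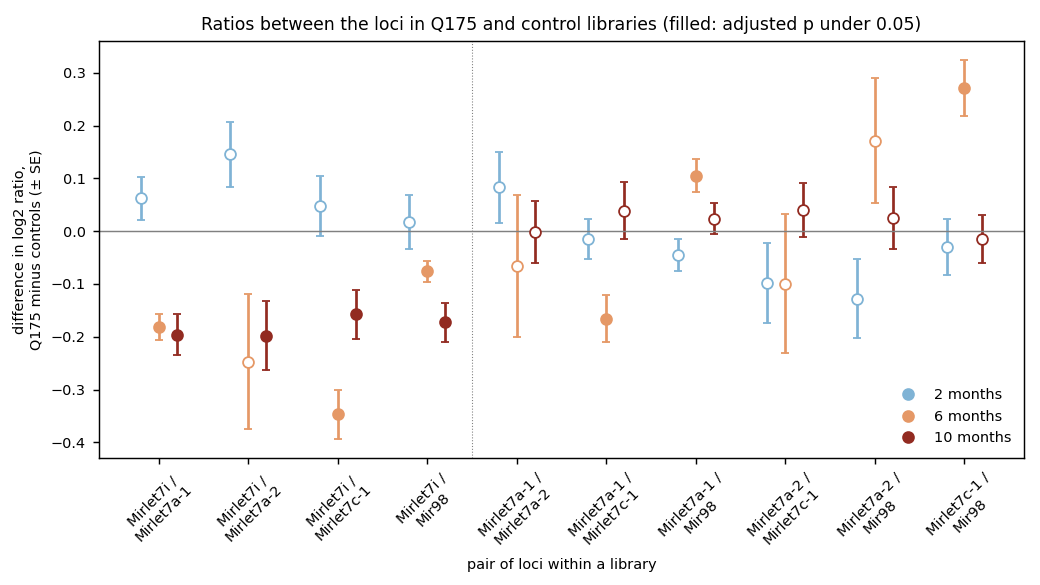
Difference between Q175 and control libraries in the log2 ratio of each pair of members within a library, at 3 ages (controls are WT and Q20 at 2 and 10 months and Q20 at 6 months); error bars are SE and filled points have an adjusted p under 0.05 over 40 tests. At 10 months the 4 pairs with Mirlet7i lie between -0.20 and -0.16, and the 6 pairs right of the dotted line lie near 0.

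At 2 months no member passed in Q175. Mirlet7i was 5949, 6121 and 6999 CPM (lowest, median, highest) in Q175 and 5770, 6199 and 6574 CPM in controls, with a log2 difference of 0.03 (SE 0.04, adjusted p = 0.948). Of the 10 ratios 0 passed, the smallest adjusted p being 0.0614 for Mirlet7i against Mirlet7a-2, which was higher in Q175. Of the members 0 passed, 0 had an unadjusted p under 0.05 and DESeq2 called 0, against 0% of all microRNAs. The same holds for Q92, Q111 and Q140 at this age, whose differences from the same controls lay between -0.07 and 0.07.

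At 2 months Q80 had the highest mean of all genotypes for each of the 5 members. The same held for Mirlet7b, Mirlet7c-2, Mirlet7d, Mirlet7f-2 and Mirlet7g, so this was not particular to the members. Log2 differences of Q80 from controls at those other let-7 loci lay between 0.07 and 0.11, and none passed (Mirlet7b and Mirlet7c-2 tested among all transcripts). The level of Mirlet7i was 6349, 6686 and 7230 CPM (lowest, median, highest) in Q80, where 6 of 8 libraries lay above the highest of the 16 controls. The log2 difference was 0.15 for Mirlet7i (SE 0.03, adjusted p = 0.0966), and Mirlet7i, Mirlet7a-1, Mirlet7c-1 and Mir98 ranked 1, 3, 4 and 5 by p among 327 microRNAs. The values of the other members were 0.18 for Mirlet7c-1, 0.15 for Mir98, 0.13 for Mirlet7a-1 and 0.09 for Mirlet7a-2. Of the members 0 passed with edgeR, 4 had an unadjusted p under 0.05, and DESeq2 called 1, Mirlet7i (0.14, adjusted p = 0.00634). Of all microRNAs 0% passed with edgeR, 8.26% had an unadjusted p under 0.05, and 0.612% were called by DESeq2. Without the libraries that stood apart, 10 of which are controls of this age, Mirlet7i had 0.16 (adjusted p = 0.253). At 6 and 10 months the Q80 differences of all 5 members were below 0 and none passed, with 2 and 0 members at an unadjusted p under 0.05.

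Among controls, Q20 was compared with WT at 2 and 10 months, and 0 members passed (0% of all microRNAs at both ages, DESeq2 0 members). At 10 months all 5 members had a higher mean in Q20. The largest difference was that of Mirlet7c-1, with 3622, 3914 and 4466 CPM (lowest, median, highest) in WT and 3870, 4476 and 6114 CPM in Q20. It amounted to 0.23 on the log2 scale (SE 0.08, adjusted p = 0.786), and was the only member with an unadjusted p under 0.05. The difference of Mirlet7i between Q20 and WT was 0.04 (SE 0.05).

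Age was compared between 10 and 2 months over all genotypes. Mirlet7a-1 rose by 0.11 on the log2 scale (SE 0.02, adjusted p = 1.47e-07, 112 libraries), from 10474 ± 767 to 11341 ± 703 CPM (mean ± SD, n = 56 each). It was the only member called. Of all microRNAs 66.2% passed (31.7% higher), beside 1 of 5 members. Mirlet7i had 0.00 (SE 0.02), Mirlet7a-2 0.02 (SE 0.03), Mir98 -0.03 (SE 0.02) and Mirlet7c-1 -0.06 (SE 0.03, adjusted p = 0.0609).

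These age values depended on the scaling and on the lane. With lane number as a covariate Mirlet7a-1 changed by 0.04 (adjusted p = 0.586), and scaled by library size alone by 0.03 (adjusted p = 0.101). Without the libraries that stood apart, 4 of 5 members and 64% of all microRNAs passed. Mirlet7a-1 rose by 0.08, Mirlet7i fell by 0.046, Mirlet7c-1 by 0.09 and Mir98 by 0.09. Among WT and Q20 mice alone Mirlet7i instead rose by 0.09 (adjusted p = 0.017), and with library size alone it fell by 0.075 (adjusted p = 8.06e-06), so its direction with age depends on the samples and the scaling.

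Other let-7 loci of the table gave the same comparison a context. Mirlet7f-2 rose by 0.20 (SE 0.02), Mirlet7g by 0.19 (SE 0.02) and Mirlet7d by 0.09 (SE 0.02), all passing the test, and Mirlet7c-2, tested among all transcripts, rose by 0.11 (SE 0.02). Mirlet7b, also tested among all transcripts, had 0.02 (SE 0.01) and did not pass. Values of that fit lie lower than those of the main fit. Mirlet7a-1 had 0.08 in it against 0.11, and Mirlet7c-1 had -0.09 against -0.06. Mirlet7b and Mirlet7c-2 are therefore not on the same scale as the other loci here. None of these 5 loci passed in any comparison by CAG length or in Q175. Mirlet7g, whose 5' arm is nearest in sequence to let-7i, had 0.00 (SE 0.04) in Q175 at 10 months. Mirlet7e, Mirlet7f-1, Mirlet7j and Mirlet7k were not analysed here.

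Levels at 6 months are given as values only. Over 48 libraries Mirlet7i averaged 8854 ± 757 CPM (SD), compared with 6313 ± 347 over the 56 libraries of 2 months and 6343 ± 440 over the 56 of 10 months. The 6-month mean of Mirlet7a-2 was 1183 ± 234 CPM, compared with 766 ± 74.3 for the younger mice and with a similar level, 779.96 ± 89.8, for the older. All 5 members had their highest mean at 6 months, the age with its own set of libraries and the code V. Within genotypes, the log2 difference between libraries of code V and code LB was -0.18 to -0.05 for Mirlet7i and 0.11 to 0.36 for Mirlet7a-2. The values of -0.18 and 0.36 are those of Q111, where all V libraries were male and all LB libraries female. Code and sex cannot be told apart in that group, and the V libraries of Q140 were all male as well.

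Between the sexes, with 4 female and 4 male mice per group, 0 of 5 members passed at each age. At an unadjusted p under 0.05 there were 0, DESeq2 called 0, and log2 differences between males and females lay between -0.06 and 0.01. Of all microRNAs 0.612%, 0.306% and 0.305% passed at 2, 6 and 10 months.

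The microRNAs most like each member were found by Pearson correlation of log2 CPM, centred within each age, over the 160 libraries and 264 microRNAs. For Mirlet7i they were Mir98 (r = 0.61), Mirlet7a-1 (r = 0.54) and Mir320 (r = 0.52). Mirlet7a-1 was most like Mirlet7f-2 (r = 0.81), Mirlet7g (r = 0.80) and Mir98 (r = 0.80), and Mir98 most like Mirlet7f-2 (r = 0.81), Mirlet7a-1 and Mirlet7g (r = 0.71). Mirlet7c-1 was most like Mirlet7a-1 (r = 0.68), and Mirlet7a-2 most like Mirlet7c-1 (r = 0.50). Within the ages of 2, 6 and 10 months, Mirlet7i correlated with Mir98 at r = 0.58, 0.90 and 0.27, and with Mirlet7a-1 at r = 0.59, 0.79 and 0.10. All these libraries share scaling, and within an age many share a lane.

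Of the neighbours of Mirlet7c-1 and Mirlet7a-2 in their clusters, Mir99a (Z = 3.03) and Mir125b-2 (Z = 2.77) beside Mirlet7c-1, and Mir125b-1 (Z = 2.81) beside Mirlet7a-2, passed in the combined CAG test in the higher direction, with adjusted p of 0.0239, 0.0474 and 0.0423, while Mir100 (Z = 0.77) did not.

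Marker microRNAs of cell types were read beside the fall of Mirlet7i in Q175 at 10 months. Of 10 neuronal markers tested 5 fell, Mir132, Mir212, Mir124a-3, Mir128-1 and Mir128-2, and the median over the 10 was -0.15 on the log2 scale. Of all microRNAs 6.73% passed as lower in this comparison. The other neuronal markers did not pass, with 0.25 for Mir124a-2, 0.02 for Mir138-2, -0.05 for Mir9-2, -0.10 for Mir138-1 and -0.14 for Mir9-3. Mir132 and Mir212, which are induced by neuronal activity, fell by 0.36 each. The summed level of the 11 neuronal markers in the table, 1 of which was not tested, ran from 104540 to 117563 CPM in Q175 and from 110822 to 129166 in controls. Of 4 choroid plexus markers 3 fell, Mir204, Mir448 and Mir1298 (median of the list -1.06), with summed levels of 2687 to 3319 CPM in Q175 and 2623 to 12321 in controls. In the lists for oligodendrocytes, microglia and leukocytes, vessels and erythrocytes 0 of 8 markers passed. Whether these shifts had a part in the fall of Mirlet7i was not tested.

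The 6-month WT libraries had lower levels of every member than any 6-month Q20 library. Mirlet7i was 5224, 5701 and 7024 CPM (lowest, median, highest) in these WT libraries, against a lowest Q20 library of 8705. The ratio of WT to Q20 means was 0.636 for Mirlet7i, 0.643 for Mir98, 0.571 for Mirlet7a-1, 0.41 for Mirlet7c-1 and 0.362 for Mirlet7a-2. No WT library overlapped Q20 for any of the 5 members, while 18.9% of all microRNAs separated these groups. Other let-7 loci were lower in these WT libraries as well. Mirlet7b and Mirlet7c-2 had ratios of 0.525 and 0.626 without overlap, and Mirlet7d and Mirlet7f-2 had 0.64 and 0.749 with overlap. Mirlet7g had a ratio of 0.95 and overlapped, and the neighbours Mir125b-2 and Mir100 were higher in WT, with ratios of 3.04 and 2.55. Cell type markers differed in these libraries as well. The summed level of 3 microglia and leukocyte markers was 397 to 488 CPM in WT and 721 to 1069 in Q20, without overlap. The means were 6395 against 3596 CPM for 3 erythrocyte markers, 120867 against 99570 for 11 neuronal markers and 2417 against 3264 for 3 oligodendrocyte markers. Their part in the low levels of the members was not tested.

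**Figure D4:**
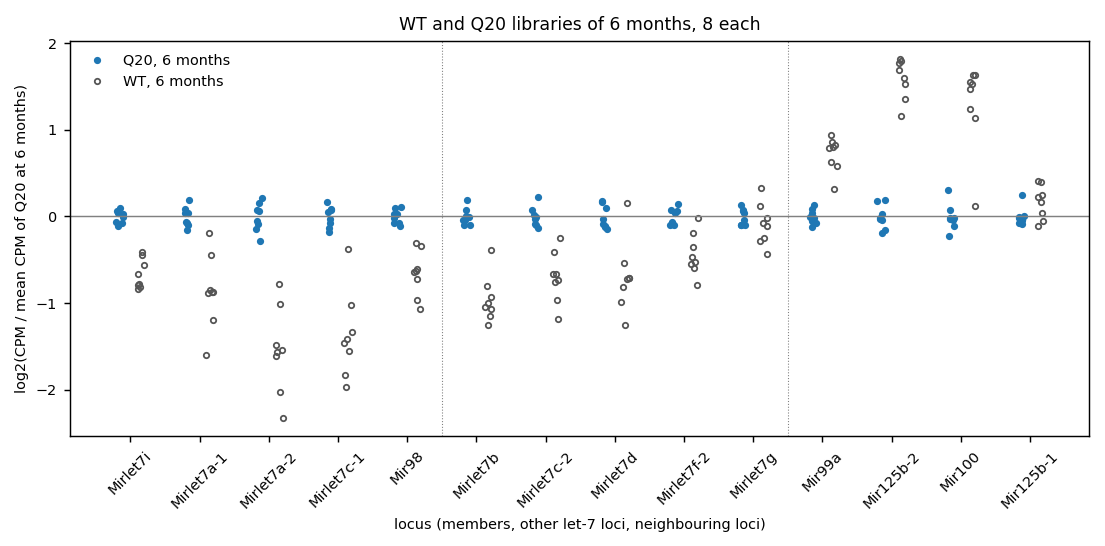
Log2 of CPM over the Q20 mean of 6 months for WT (open) and Q20 (filled) libraries of that age, 8 each, at the 5 members, 5 other let-7 loci and 4 neighbouring loci. All WT libraries lie below all Q20 libraries at the 5 members, and above them at Mir99a and Mir125b-2.

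With these WT libraries counted as 6-month controls, the CAG slope of Mirlet7i at 6 months turned to 0.13 (adjusted p = 0.0593), where 47.7% of all microRNAs passed, and its combined Z to -1.0 (adjusted p = 0.456). The fall of Mirlet7i at 6 months therefore rests on Q20 as the control group, and that at 10 months does not involve these libraries.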

How the data were processed

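Small RNA was sequenced by the authors from cortex of the mice (miRNeasy extraction, strand-specific single-end reads on Illumina HiSeq, CASAVA 1.8.2 per the submitters' processing notes) and aligned to mm10 with STAR. The deposited table holds estimated counts per transcript, of which 48.1% of the values above 0 were not whole, although the methods name HTSeq, and a companion table holds FPKM made by the authors from the same counts. Columns that match no sample numbered 0. Estimated counts were rounded to whole numbers and fitted with edgeR 4.0.16 in R 4.3.3 (TMM scaling, robust quasi-likelihood F test, two-sided) on the microRNAs of the study's list of 480 symbols, 329 of which have a transcript in the table, keeping those with at least 1 count in a fit. Adjusted p-values are Benjamini-Hochberg over all microRNAs tested, and a result passed at an adjusted p under 0.05. Covariates were the sex of the cage, which differs from the labelled sex in 2 mice, and at 6 months the library code. Groups were taken from the sample titles. The combined test is the sum of both Z values over the square root of their number. FPKM was used only to order levels between loci. DESeq2 1.42.0 and other scalings, filters, covariates and sample sets were tried as alternatives. Library totals were 2.04 to 11.6 (units of 1e6 counts). P-values measure the spread between mice, and counting error is not separate from it. At 2 and 10 months mice of the same line and sex mostly shared a cage, and the tests treat them as independent. Replicate numbers did not pair the libraries (mean correlation of same-numbered deviations -0.03, -0.04 and -0.01 at 2, 6 and 10 months). The scripts were tested on simulated counts. Named genes are the 5 members, other let-7 loci, neighbours on shared primary transcripts and, per member, the 3 microRNAs with the highest Pearson correlation. Members, lists and tests were chosen with earlier results of these data known. Markers of cell types are lists of microRNAs from general knowledge. Python 3.11.15 with pandas 2.3.3 and numpy 2.4.6 was used for summaries.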

Additional observations from a re-analysis of the deposited data

Results flagged for a closer look

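The values of each member in each genotype and age make 105 sets of 8 libraries. In 11 of these sets 1 library lay farther from the rest than Dixon's limit allows. Chance gives about 1 in 20 sets, but the sets of different members share libraries and are not independent. At 10 months Mirlet7i was low in 1 WT library (5890 CPM) and 1 Q92 library (5838 CPM) and high in 1 Q111 library (7133 CPM) and 1 Q140 library (7841 CPM). The same male Q111 library, replicate 2, was high for Mirlet7c-1 (5009 CPM), and a Q140 library was high for that locus as well (5101 CPM). At 2 months female replicate 4 of Q175 was high for both Mirlet7a-1 (12724 CPM) and Mir98 (1067 CPM). At 6 months Mirlet7a-2 was low in 1 Q175 library (588 CPM), and Mirlet7c-1 was low in 1 Q111 library (5406 CPM) and high in 1 WT library (4570 CPM). None of the Q175 libraries of 10 months stood apart for any member.

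The CAG slope of Mirlet7i differed between 10 and 2 months by -0.10 on the log2 scale for 100 repeats (edgeR interaction term, adjusted p = 0.0346). This call was lost under several alternatives, among them DESeq2 (adjusted p = 0.0596) and the fit without the libraries that stood apart (edgeR, adjusted p = 0.249).

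The WT libraries of 6 months, which were left out of the tests except as an alternative, had lower means than Q20 of the same age at all 5 members, with ratios of 0.636 for Mirlet7i, 0.571 for Mirlet7a-1, 0.362 for Mirlet7a-2, 0.41 for Mirlet7c-1 and 0.643 for Mir98.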

How the results depend on the processing

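Of 1452 values of single loci under alternatives, 1412 kept their direction and side of the threshold, or stayed without a call, 17 lost a call, 17 gained one and 6 reversed. The 1412 include 144 values that changed sign and stayed without a call. Most of the 1412 had no call in the main fit to lose. The call of Mirlet7i in Q175 at 10 months held under all of its alternatives. The number of members past the threshold for CAG length at 6 months went from 1 to 0 with edgeR's own filter on low counts, with both let-7a rows summed, with LB libraries alone, without Q175 and without the libraries that stood apart, a choice made after seeing the data, and to 4 with the 6-month WT libraries. The 4 were Mirlet7c-1 at 0.46 and, with reversed slopes, Mirlet7a-1 at 0.27, Mirlet7a-2 at 0.40 and Mir98 at 0.15, while Mirlet7i reversed to 0.13 and did not pass. At 10 months it went from 1 to 0 without Q175. In the combined test it went from 1 to 0 without Q175 and to 2 with the 6-month WT libraries. The interaction went from 1 to 0 with RLE scaling, DESeq2, the filter, all transcripts, the summed rows, without Q175 and without the libraries that stood apart. Between 10 and 2 months the 1 call became 2 with RLE, DESeq2, the filter or controls alone, 3 with library size alone or all transcripts, 4 without the libraries that stood apart and 0 with lane as a covariate, and Mirlet7i reversed to -0.075 with library size alone and -0.046 without the libraries that stood apart. Where 0 members were called, 1 was called in Q80 at 2 months with library size alone and DESeq2, in Q175 at 6 months over all transcripts, and in Q175 against Q80 without the libraries that stood apart. Some of these settings use fewer samples, and the cause of the changes was not tested. With the replicate block, the slope of Mirlet7i at 10 months was -0.09 and no member's call changed. The split of reads between loci of one mature sequence limits what can be said of Mirlet7a-1, Mirlet7a-2 and Mirlet7c-1 alone. Counts of Mirlet7i were also not whole in 165 libraries, and how far divided reads affect them was not tested.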
